A study of Homo sapiens with 120 samples.

Results

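The genes described here encode the subunits of the proteasome. They were taken by name from the deposited expression table: every row named PSMA, PSMB, PSMC or PSMD followed by a number, and PSME1, PSME2 and PSME3, without pseudogenes or antisense genes. This gave 42 members of 27118 distinct names, and each member stood on 1 row only. The libraries were made from CFPAC-1, an established human pancreatic ductal adenocarcinoma cell line. The study set single cells picked on microrafts, small releasable culture elements of an array, beside cells taken up by the Fluidigm C1, an instrument that traps single cells in microfluidic chambers, and beside bulk RNA of about 10000 cells. It also profiled microrafts that had been scored as proliferative or nonproliferative, with and without the cytidine analog gemcitabine.

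The isolation groups were all untreated CFPAC-1 cells: 4 bulk libraries, 10 rafts with 1 cell, 10 rafts with 2 cells, 5 C1 captures with 1 cell and 5 with 2 cells. Blanks of the whole series were 7 water libraries, 10 rafts without a cell and 5 C1 captures without a cell. Of the water libraries, 1 is titled for each of the treatment arms named next. The treatment arms were rafts labelled untreated, saline, 2 nM gemcitabine and 5 nM gemcitabine, with 8 proliferative and 8 nonproliferative rafts in each, 64 in all. The number of cells on these 64 rafts is labelled unknown, and no label names separate cultures, so p-values measure the spread between rafts that may come from 1 culture per arm. Raft and bulk libraries carry 2 styles of library title, called the first and the second set below.

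The proteasome is the main protein-degrading machine of the cytosol and nucleus. Its 20S core is a barrel of outer rings of alpha subunits (PSMA genes) and inner rings of beta subunits (PSMB genes), and PSMB5, PSMB6 and PSMB7 carry the proteolytic sites. The 19S regulatory particle, built from ATPases (PSMC genes) and other subunits (PSMD genes), recognises ubiquitin-tagged proteins, removes the tag and threads them into the core. Interferon signalling exchanges the catalytic subunits for PSMB8, PSMB9 and PSMB10, which gives the immunoproteasome, and raises PSME1 and PSME2, whose products form the PA28 activator. Immunoproteasomes are best known for trimming peptides for MHC class I molecules, and proliferating tumour cells are known to depend on proteasome activity.

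The 7 members with a lower mean level in rafts with 1 cell than in C1 captures with 1 cell, described below, are shown first by the sequence upstream of their start. They were chosen by that value, and are the 3 immunoproteasome genes, the PA28 genes PSME1 and PSME2, PSMB4, a noncatalytic beta subunit, and PSMD10, a 19S assembly chaperone. Each line gives the 250 bases before the start annotated in RefSeq on GRCh38.p14, read 5′ to 3′ on the gene's own strand. Capitals mark a match, on either strand, to the core of the interferon-stimulated response element (GAAA, any 2 bases, GAAA), the gamma-activated site (TTCNNNGAA) or the core of the antioxidant response element (TGACNNNGC). The windows are PSMB8 at chr6:32844680-32844929 on the minus strand, PSMB9 at chr6:32853942-32854191 on the plus strand, PSMB10 at chr16:67936851-67937100 on the minus strand, PSME1 at chr14:24135944-24136193 on the plus strand, PSME2 at chr14:24146611-24146860 on the minus strand, PSMD10 at chrX:108091543-108091792 on the minus strand and PSMB4 at chr1:151399323-151399572 on the plus strand. The PSMB8 window also lies in PSMB8-AS1 and the PSMD10 window in ATG4A.
PSMB8: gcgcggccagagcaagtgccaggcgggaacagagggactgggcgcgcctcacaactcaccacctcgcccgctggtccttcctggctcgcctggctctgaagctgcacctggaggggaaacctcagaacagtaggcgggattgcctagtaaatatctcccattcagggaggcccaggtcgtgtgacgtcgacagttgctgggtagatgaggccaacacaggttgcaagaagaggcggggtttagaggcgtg
PSMB9: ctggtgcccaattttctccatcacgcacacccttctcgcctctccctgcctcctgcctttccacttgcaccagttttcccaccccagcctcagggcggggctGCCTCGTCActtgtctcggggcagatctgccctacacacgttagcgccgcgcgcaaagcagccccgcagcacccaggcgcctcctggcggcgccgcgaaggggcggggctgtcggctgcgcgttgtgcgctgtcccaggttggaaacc
PSMB10: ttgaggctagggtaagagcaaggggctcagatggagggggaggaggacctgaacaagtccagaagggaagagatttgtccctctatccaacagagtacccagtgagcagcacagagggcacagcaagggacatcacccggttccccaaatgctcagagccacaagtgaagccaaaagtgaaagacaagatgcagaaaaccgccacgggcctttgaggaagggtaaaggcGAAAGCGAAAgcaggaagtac
PSME1: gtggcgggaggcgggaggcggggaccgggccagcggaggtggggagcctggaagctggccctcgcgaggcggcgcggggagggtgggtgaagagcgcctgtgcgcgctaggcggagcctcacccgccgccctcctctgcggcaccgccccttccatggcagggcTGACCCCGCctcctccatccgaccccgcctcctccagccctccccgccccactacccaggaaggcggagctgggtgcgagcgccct
PSME2: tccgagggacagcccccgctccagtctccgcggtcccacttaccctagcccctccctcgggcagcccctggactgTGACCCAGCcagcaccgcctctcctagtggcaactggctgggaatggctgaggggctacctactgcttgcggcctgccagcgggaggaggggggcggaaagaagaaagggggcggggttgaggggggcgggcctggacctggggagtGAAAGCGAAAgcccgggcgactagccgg
PSMB4: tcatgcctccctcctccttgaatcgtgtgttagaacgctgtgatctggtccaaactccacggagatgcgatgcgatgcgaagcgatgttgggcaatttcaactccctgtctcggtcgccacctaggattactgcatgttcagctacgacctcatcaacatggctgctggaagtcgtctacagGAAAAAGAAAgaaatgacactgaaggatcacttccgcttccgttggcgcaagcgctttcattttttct
PSMD10: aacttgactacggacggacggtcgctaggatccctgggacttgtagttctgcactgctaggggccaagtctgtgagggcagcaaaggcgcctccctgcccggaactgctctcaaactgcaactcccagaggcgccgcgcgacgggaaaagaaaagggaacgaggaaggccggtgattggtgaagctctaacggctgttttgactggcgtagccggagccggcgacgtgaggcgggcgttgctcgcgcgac
The interferon-stimulated core lay in 4 of the 37 members with a window in the table, PSMB10, PSME2, PSMB4 and PSMA4, and in 3.02% of 35116 windows of the same length over all genes. Its match began at position -21 in PSMB10, -28 in PSME2 and -68 in PSMB4, counted from the annotated start. The gamma-activated site was matched in 5 member windows and in 6.57% of all windows, and the antioxidant core in 8 member windows, among them PSMB9, PSME1 and PSME2, and in 10.9% of all windows. The windows of PSMB8 and PSMD10 held none of these letters. A match is a string of letters and not a measured binding site.

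A gene was called detected in a library at an FPKM (fragments of a gene, scaled by transcript length and by the library's total) of 1 or more. Bulk libraries held 39 to 40 detected members, and rafts and C1 captures with 1 or 2 cells held 38 to 40. Empty rafts held 0 to 3, water libraries 0 to 7 and empty C1 captures 5 to 22, so blanks in the C1 were not free of these transcripts. Members took a median of 2.67% of all FPKM in bulk (range 2.62% to 2.70%), 2.29% in rafts with 1 cell (1.55% to 2.84%) and 2.11% in C1 captures with 1 cell (1.79% to 2.71%). Libraries had 8570 to 10581 genes detected in bulk, 4804 to 8461 in rafts with 1 cell and 8560 to 10474 in C1 captures with 1 cell. Epithelial markers were present in bulk (summed FPKM of 1199 to 1790 over 6 genes, with CFTR under 1 in every bulk library), and of 9 blood, endothelial and fibroblast markers 8 were under 1 FPKM in every bulk library. With no counts in the files the depth behind a value is unknown, and values carry no counting error.

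In bulk RNA the highest median was that of a core particle gene, and the levels of core genes ran from 8.28 to 2206 FPKM. FPKM is scaled by transcript length but not by other properties of a gene such as GC content. Levels of different genes are therefore set side by side as a description only. PSMB3, a noncatalytic beta subunit, had the highest median at 2206 FPKM (range 2098 to 2445), and PSMA6 led the alpha ring at 1690.3 (1554 to 2278), where PSMA5 was lowest at 148. Among the constitutive catalytic genes the medians were 844 for PSMB5 (chymotrypsin-like site), 742 for PSMB6 (caspase-like site) and 279.7 for PSMB7 (trypsin-like site). The order PSMB5, PSMB6, PSMB7 did not separate PSMB5 from PSMB6, whose ranges of 722 to 968 and 574 to 914 overlapped, while PSMB7 reached 367 at most. PSMB8 (116 to 244) and PSMB9 (124 to 172) also overlapped, and PSMB10 was far below both at 6.15 to 11.7. The 19S ATPases ran from 51.2 for PSMC3 to 399 for PSMC1, and the lid, the part of the 19S particle that holds the deubiquitinase PSMD14, from 2.495 for the scaffold subunit PSMD3 to 302 for PSMD7. PSME2 was among the highest members at 1651 and PSME3, which forms a nuclear PA28 ring, was at 26.5. PSMA8, the testis form of an alpha subunit, and PSMB11, the thymus form of a catalytic subunit, were listed at 0 in every bulk, raft and C1 library with cells. In the treatment arms each appeared in 1 library: PSMA8 at 24.1 FPKM in 1 untreated proliferative raft and PSMB11 at 34.9 in 1 saline nonproliferative raft.

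**Figure D1:**
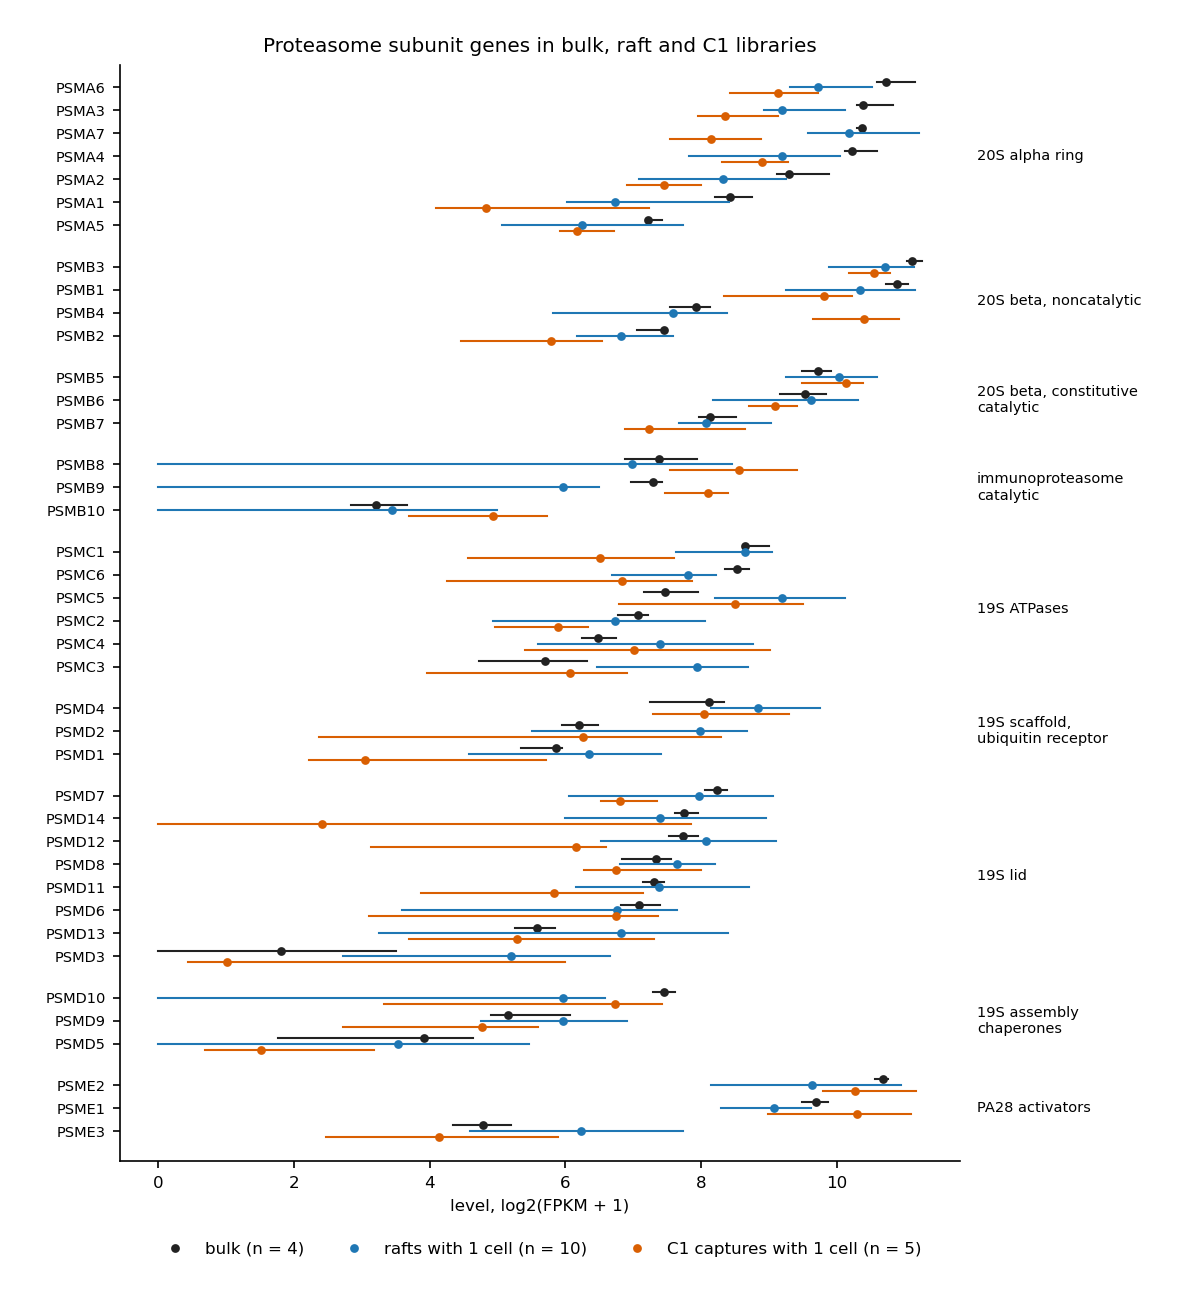
Level of 40 members as log2(FPKM + 1) by role in the complex, with a point at the median and a line from the lowest to the highest library, for bulk (n = 4), rafts with 1 cell (n = 10) and C1 captures with 1 cell (n = 5). Bulk ranges are short, PSMB4, PSMB8, PSMB9 and PSMB10 lie to the right in C1 captures, and PSMB8, PSMB9, PSMB10, PSMD10 and PSMD5 each reach 0 in rafts.

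Rafts with 1 cell and C1 captures with 1 cell differed in which parts of the proteasome they showed. Compared on mean log2(FPKM + 1), 33 of the 40 members measured had the higher mean in rafts and 7 the lower, and the median difference was 0.77 (0.73 over all 42), while the median over all 10176 genes was -0.27. The 40 are those detected in at least 5 of the libraries compared. All 8 lid genes, all 6 ATPases, all 3 scaffold and ubiquitin receptor genes, all 7 alpha ring genes and all 3 constitutive catalytic genes were higher in rafts. All 3 immunoproteasome genes were lower, as were PSMB4, PSME1, PSME2 and PSMD10, a 19S assembly chaperone. Members higher by a log2 of 1 or more numbered 16 of 40, where 25.9% of all genes were, and 6 were lower by as much, where 34.7% of all genes were. Each group came from cells with no separate culture named and counts as 1 sample, so these differences have no test.

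PSMB9 separated rafts with 1 cell from C1 captures with 1 cell without overlap. Its FPKM was 249, 294, 337, 176 and 276 in the 5 C1 captures. In the 10 rafts it was 0 at the lowest, 61.7 at the median and 89.4 at the highest. Every C1 capture with 1 cell was thus above every raft with 1 cell, and bulk lay between at 124 to 172, apart from these C1 captures too. Other rafts were not apart from them. PSMB9 was 32.3 to 177 in rafts with 2 cells and 106 to 323 in the saline proliferative rafts with at least 1000 genes. The difference of rafts from C1 captures was -2.69 on the log2 scale, and -2.09 without the raft listed at 0. PSMB8 was 679, 401, 263, 377 and 187 FPKM in C1 captures and 0, 125 and 351 at the lowest, median and highest raft. These ranges overlapped. The difference in PSMB8 was -2.05, and it was -1.34 without the 1 raft listed at 0, so that library decided much of its size. PSMB10 was 29.7, 16.8, 52.2, 43.1 and 12.01 FPKM in C1 captures against 0, 9.88 and 31.03 in rafts, a difference of -1.57 with overlapping ranges. C1 captures with 2 cells, which entered none of these differences, held PSMB8 at 142 to 436, PSMB9 at 178 to 361 and PSMB10 at 7.76 to 55.7.

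PSMB4, the noncatalytic beta subunit whose window is shown above, had the most negative difference of the 40 members. Its FPKM was 1519, 807, 1929, 1348 and 897 in C1 captures with 1 cell and 55.5 to 334 in rafts with a median of 191, with no overlap and a difference of -2.78. Bulk held 245, 186, 238 and 280, so PSMB4 in C1 captures was above bulk as well, by 2.39. The PA28 subunit PSME1 was 2184, 1329, 506, 1264 and 1157 in C1 captures and 314 to 789 in rafts, overlapping in the C1 capture at 506, with a difference of -1.18. Its partner PSME2 differed by -0.72 with wide overlap, and PSME3, the PA28 subunit that does not answer to interferon, differed by 2.06 in the other direction.

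The largest differences toward rafts were in the 19S particle. PSMD14, the deubiquitinase of the lid, was 97.5, 3.07, 0, 230 and 4.33 FPKM in C1 captures and 62.6 to 496 in rafts with a median of 168, a difference of 3.56. Without the C1 capture at 230 it was 4.58. The lid subunit PSMD3 was 5.63 to 100.4 in rafts and at 0.36, 1.01, 0.88, 62.8 and 3.82 in C1 captures, a difference of 3.21. The scaffold PSMD1 (2.95), the lid subunit PSMD12 (2.65) and the ATPase PSMC1 (2.56) followed. PSMC1 did not overlap between methods, at 198 to 527 FPKM in rafts and 22.7 to 194 in C1 captures. The alpha subunit PSMA7, chosen after its values were seen, was the only other member above the C1 range in every raft, at 763 to 2365 against 185 to 472. Of 40 members 2 thus lay above the C1 range without overlap, where 1.87% of all genes did, and 2 lay below it, PSMB4 and PSMB9, where 7.52% did.

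**Figure D2:**
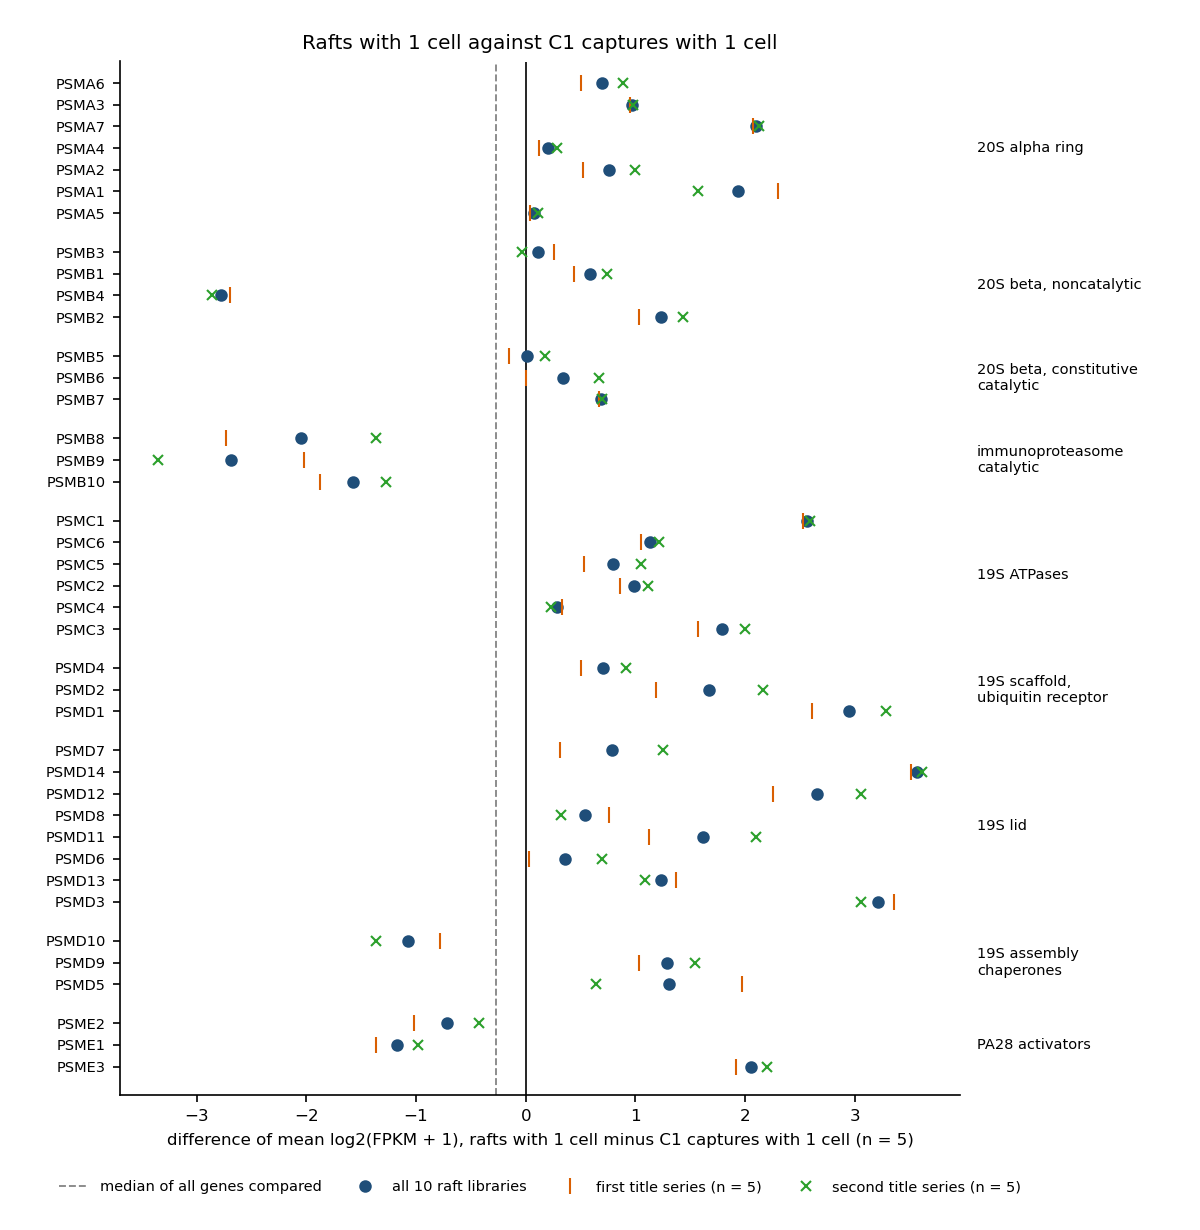
Difference of mean log2(FPKM + 1), rafts with 1 cell minus C1 captures with 1 cell, for 40 members by role; circles use all 10 raft libraries, bars and crosses the first and second set of 5, each against the same 5 C1 captures, and the dashed line is the median of all genes at -0.27. PSMB4, the 3 immunoproteasome genes, PSMD10, PSME1 and PSME2 lie left of 0, and the 19S lid lies right of it up to 3.56.

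Among the isolation groups, the balance between the immunoproteasome and its constitutive counterparts differed by method. PSMB8, PSMB9 and PSMB10 together made up a median of 27.9% of the summed FPKM of the 6 catalytic genes in C1 captures with 1 cell (19.98% to 32.3%) and 37.8% in captures with 2 cells (15.8% to 44.2%). The share was 14.8% in bulk (13.1% to 17.4%), 8.41% in rafts with 1 cell (3.23% to 15.4%) and 11.7% in rafts with 2 cells (8.18% to 17.1%). Every C1 capture with 1 cell was above every bulk library and every raft with 1 or 2 cells. Rafts of the treatment arms, whose cell numbers are unknown, reached the C1 range too, so a low share was not common to all rafts. The 4 saline nonproliferative rafts with at least 36 members detected were at 23.1%, 19.7%, 23.5% and 6.54%. Saline proliferative rafts with a value lay at 6.85% to 15.8%. In the mean log2 level the immunoproteasome genes stood below the constitutive ones by 4.21 ± 1.12 in rafts with 1 cell (SD over 10 libraries), 1.76 ± 0.33 in C1 captures (SD over 5 libraries) and 3.18 ± 0.23 in bulk (SD over 4 libraries). The constitutive genes differed by less than the immunoproteasome genes did: PSMB5 by 0.01, PSMB6 by 0.34 and PSMB7 by 0.68, each higher in rafts. The median difference was 0.77 over the 40 members and -0.27 over all genes.

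**Figure D3:**
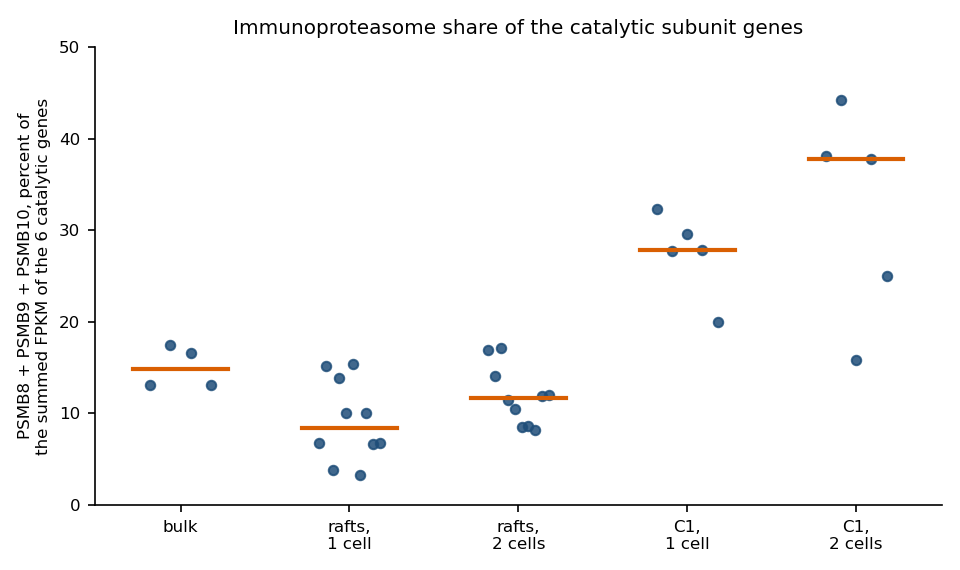
Summed FPKM of PSMB8, PSMB9 and PSMB10 as a percent of the 6 catalytic genes in each library, with the group median as a bar. The 5 C1 captures with 1 cell lie between 19.98% and 32.3%, above all 4 bulk libraries and all 20 rafts.

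Other values moved with this contrast. Empty C1 captures held PSMB9 in 3 of 5, at up to 48.1 FPKM, PSMB8 in 1 at 13.8, PSME1 in 3 at up to 46.7 and PSMB4 in 1 at 48.4, while PSMB5, PSMB6 and PSMB7 were under 1 FPKM in all 5. In the C1 captures with 1 cell PSMB9 was at least 176, PSMB8 at least 187, PSME1 at least 506 and PSMB4 at least 807. PSMB10 was at 2.17 FPKM in 1 empty C1 capture and at least 12.01 in captures with 1 cell. FPKM is scaled within each library, so a blank's level does not give its amount in a library with a cell. PCSK5, TMEM45A, ASTN2 and MORC4, a list taken from an earlier look at the water libraries of this same table, summed to 453 to 850 FPKM in C1 captures, 0 to 109 in rafts and 14.1 to 19.6 in bulk. The part of the blanks' content in these differences was not tested. Across the 40 members the difference of rafts from C1 captures went with transcript length at a Spearman rho of 0.53, against -0.16 over 8298 matched genes. This describes genes that share the same 15 libraries.

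Genes that work beside the proteasome were measured in the same libraries, where 4520 of all 10176 genes were higher in rafts and 5656 lower. Of 16 measured assembly factors and partners, 10 were higher in rafts than in C1 captures and 8 of them by a log2 of 1 or more, led by the core assembly chaperone PSMG1 (4.90) and the ubiquitin receptor ADRM1 (4.21). Of 14 ubiquitin and delivery genes 9 were higher in rafts, among them VCP, the unfolding ATPase that hands substrates on, by 4.22 and the shuttle UBQLN1 by 3.60. Of 7 measured genes of antigen processing and its interferon regulators 5 were lower in rafts. TAPBP, which loads peptides onto MHC class I, was 576 to 3538 FPKM in C1 captures and 0 to 257 in rafts, without overlap, a difference of -4.01. The interferon regulator IRF1 differed by -2.13 in the same direction, while TAP1, the peptide transporter gene that lies beside PSMB9, differed by 0.52 in the other, with 1.36 for the first set of rafts and -0.31 for the second.

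Set against bulk, each method departed in its own way. In bulk, fewer cells expressing a gene and less RNA per cell cannot be told apart. In rafts with 1 cell 16 of 40 members were higher and 24 lower, with a median of -0.37 (-0.24 over all 42) where the median of all 9648 genes was -0.61. A log2 of 1 or more upward was reached by 5 members (background 7.42%) and downward by 7 (background 34.9%). All 7 alpha ring genes were lower, 4 of them by 1 or more, led by PSMA4 (-1.24). The lid gene PSMD3 was higher in rafts by 3.81, the largest such difference among all 9648 genes: its bulk libraries were at 0, 4.99, 10.3 and 0 FPKM and no raft was under 5.63. PSMC3 was 87.4 to 411 in rafts and 25.5 to 78.6 in bulk, with no overlap. PSMC5 (1.64), PSME3 (1.45) and the scaffold PSMD2 (1.38) were also higher, and PSMD10 (-2.33) and PSMB9 (-1.90) were lower in rafts without overlap. Without overlap 2 members, PSMC3 and PSMC5, lay above bulk (0.591% of all genes) and 6 lay below it (2.26% of all genes).

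In C1 captures with 1 cell 11 of 40 members were higher than bulk and 29 lower, with a median of -0.87 (-0.69 over all 42) beside -0.29 over 9665 genes. After scaling libraries to a common total the median over all 42 was -0.43. Members higher by a log2 of 1 or more numbered 3, PSMB4, PSMB10 and PSMB8, where 25.1% of all genes were. Members lower by as much numbered 20, where 35.4% of all genes were, and they held all 7 alpha ring genes and 5 of 8 lid genes. PSMD14 (-3.98), PSMA1 (-3.17), PSMC1 (-2.71), PSMD1 (-2.43) and PSMD12 (-2.43) were the lowest. Without overlap 16 members lay below bulk, where 13.8% of all genes did, and 3 lay above it, PSMB4, PSMB9 and PSMB10, where 12% did. The immunoproteasome genes were above bulk by 1.57 for PSMB10, 1.05 for PSMB8 and 0.79 for PSMB9. Across the 40 members the difference from bulk went with the GC content of the transcripts at a Spearman rho of 0.78 in C1 captures and 0.48 in rafts. Over all matched genes the values were 0.20 and 0.47, as a description of genes that share libraries. PSMB10 has a median transcript GC of 60.6% and PSMA3 of 39.3%.

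Rafts with 2 cells were compared with rafts with 1 cell. They were higher in 25 of 40 members and lower in 15, with a median of 0.10 (0.07 over all 42), while the median of all 10660 genes was 0.40. No member differed by a log2 of 1 or more in either direction, where 21.1% of all genes were higher and 1.39% lower by that much. PSMB8 (0.86), PSMB9 (0.85), the chaperones PSMD5 (0.84) and PSMD10 (0.72) and the alpha subunit PSMA1 (0.61) had the largest positive values. Each of PSMB8, PSMB9, PSMB10 and PSMD10 was listed at 0 in 1 raft with 1 cell and in no raft with 2 cells, and without its raft at 0 the difference was 0.15 for PSMB8, 0.26 for PSMB9 and 0.15 for PSMD10. PSMD5 was at 0 in 3 rafts with 1 cell, and its difference was 0.52 without any 1 of them. PSMB4 was lowest at -0.64, and the ranges of all 40 members overlapped, as did those of nearly all genes, where 0.00938% lay higher and 0% lower without overlap.

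In the treatment arms the libraries fell between full and nearly empty sets of members. At least 36 members were detected in 17 of 32 proliferative rafts and 6 of 32 nonproliferative rafts, and at most 13 in 10 and 19 of them. By arm, 36 or more were reached in 2 untreated, 7 saline, 5 of the 2 nM and 3 of the 5 nM proliferative rafts, out of 8 each. Among nonproliferative rafts the numbers were 0, 4, 2 and 0. Most libraries with many genes held nearly all members, but 1 saline nonproliferative raft with 10424 genes had 13 members and 1 nonproliferative raft at 5 nM with 10198 genes had 17. Across the 10579 genes of a mean bulk FPKM of 1 or more, leaving the members out, their Spearman rho with bulk was -0.11 and -0.02. The labels name no batch in these arms, and treatment cannot be told apart from anything else that differed between them.

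**Figure D4:**
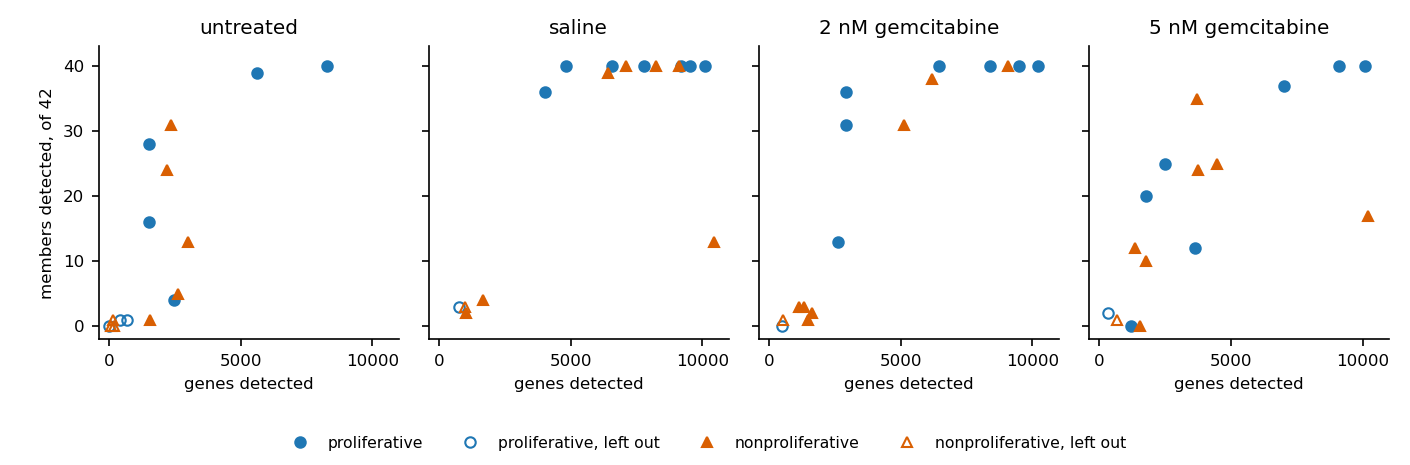
Members detected, of 42, against genes detected in each of 64 raft libraries by arm; circles are proliferative and triangles nonproliferative rafts, and open symbols were left out of the fit for having under 1000 genes. In saline 7 of 8 proliferative rafts lie at 36 to 40 members, and nonproliferative rafts with over 10000 genes in the saline and 5 nM arms lie at 13 and 17.

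Averaged over the 4 arms, mean log2 levels of proteasome genes were higher in proliferative than in nonproliferative rafts. The calls depended on which libraries were fitted. In the 52 libraries with at least 1000 genes (26 of each class), limma called 20 of 40 members higher and 0 lower at a Benjamini-Hochberg adjusted p under 0.05, taken over all 11560 genes tested. Of all genes 11.4% were called higher and 0.753% lower. All 40 differences were positive, with a median of 2.66 where the median of all genes was 0.58. The unadjusted p was under 0.05 for 32 members. Of all 11560 genes it was under 0.05 for 3256 higher and 392 lower. Among the members called were all 3 constitutive catalytic genes, 4 of 6 ATPases, 6 of 8 lid genes, 2 of 7 alpha ring genes, 2 of 3 assembly chaperones, 2 of 3 PA28 genes and 1 of 3 scaffold and receptor genes. None of 4 noncatalytic beta genes and none of 3 immunoproteasome genes was called. In the 34 libraries with a rho with bulk of at least 0.25 limma called 0 of 40 members, as described below. In the 52 libraries members detected had medians of 39.5 in proliferative and 15 in nonproliferative rafts. Their share of all FPKM had medians of 2.41% (0% to 3.27%) and 2.06% (0% to 5.48%). The median share was lower in proliferative rafts untreated (2.34% against 2.67%) and at 5 nM (1.61% against 2.33%). In saline (3.12% against 1.30%) and at 2 nM (2.56% against 2.08%) it was higher.

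PSMC3, an ATPase of the 19S base, had the smallest adjusted p. Its FPKM was 0, 241 and 1090 at the lowest, median and highest of 26 proliferative rafts and 0, 0 and 336 in 26 nonproliferative rafts, and it was detected in 19 and 9 of them. The limma difference was 3.92 ± 0.93 (SE; adjusted p = 0.00448). PSMD4, the ubiquitin receptor of the particle, had medians of 750.1 and 0.685 FPKM and was detected in 23 and 13 rafts, with a limma difference of 4.59 ± 1.10 (adjusted p = 0.00493). The lid subunit PSMD8 was detected in 21 and 11 rafts and differed by 4.12 ± 1.01 (limma adjusted p = 0.00569). The alpha subunit PSMA6 had medians of 799.7 and 0 and differed by 4.57 ± 1.12 (limma adjusted p = 0.00572). PSME1 had medians of 685 and 0, was detected in 24 and 12 rafts, and differed by 4.45 ± 1.13 (limma adjusted p = 0.00730). For each of these genes both classes reached down to 0, so the ranges overlapped. Over 61 alternatives the call was lost in 1 each for PSMC3, PSMD4, PSMD8 and PSMA6. Their limma adjusted p reached 0.193, 0.0553, 0.283 and 0.349 in that order. PSME1 lost its call in 2, with a difference as low as 0.021 and a limma adjusted p up to 0.990.

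Among the catalytic genes PSMB5 differed by 3.76 ± 1.15 (limma adjusted p = 0.0237), PSMB6 by 3.75 ± 1.20 (0.0301) and PSMB7 by 3.43 ± 0.96 (0.0146). PSMB8 differed by 1.73 ± 0.98 (0.208), PSMB9 by 1.62 ± 0.98 (0.237) and PSMB10 by 0.87 ± 0.70 (0.381). In libraries with a rho with bulk of at least 0.25 none of these 6 genes was called, and PSMB6 turned to -0.61 (limma adjusted p = 0.688, range 0.00884 to 0.688 over 61 alternatives). The call of PSMB6 was lost in 11 of 61 alternatives. Whether the immunoproteasome and constitutive genes differ in this effect was not tested. PSMB9 had a median of 146 FPKM in proliferative rafts and 0 in nonproliferative rafts, where 1 raft reached 2465. PSMB4 differed by 0.97 ± 1.01 (0.505). In PA28, PSME2 was called at 3.70 ± 1.20 (0.0324) and PSME3 was not at 1.99 ± 0.82 (0.0836). The call of PSME2 was lost in 15 of 61 alternatives, and its difference turned to -0.22 in libraries with a rho of at least 0.25 (limma adjusted p = 0.848, range 0.0101 to 0.848 over the alternatives).

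**Figure D5:**
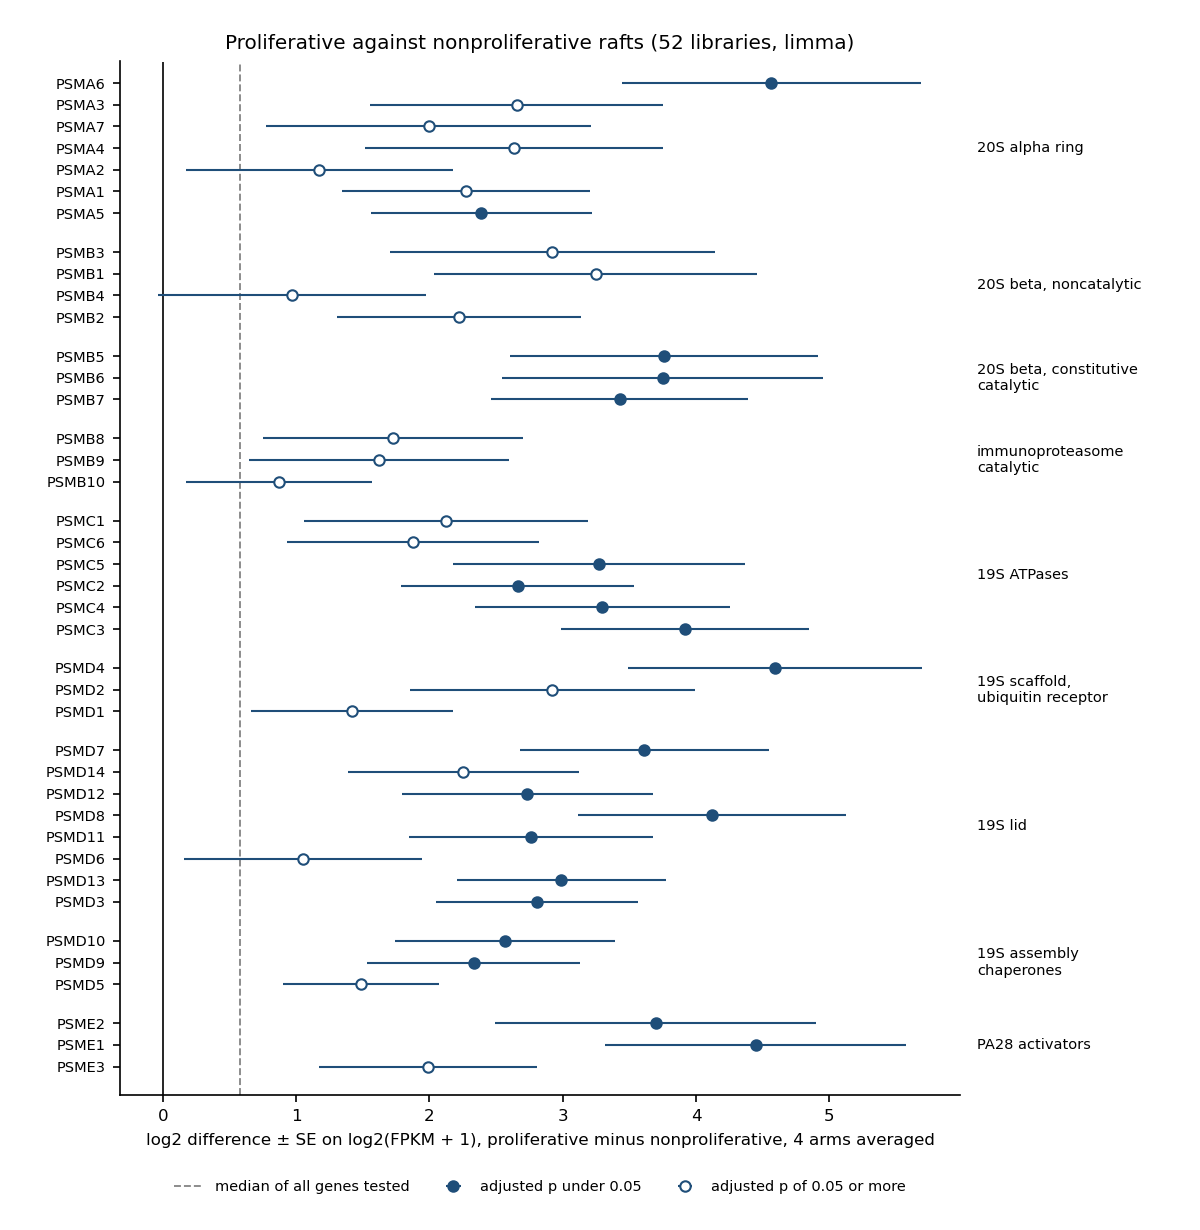
Limma difference in log2(FPKM + 1) with its SE, proliferative minus nonproliferative rafts averaged over 4 arms (52 libraries), for 40 members by role; filled circles have an adjusted p under 0.05 and the dashed line is the median of all genes at 0.58. All 40 lie right of 0, the 3 immunoproteasome genes and PSMB4 lie between 0.87 and 1.73, and PSMD4 is highest at 4.59.

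The content of the libraries moved with the class. Proliferative rafts in the fit had 1200 to 10206 genes detected (median 6022) and nonproliferative rafts 1011 to 10424 (median 2799.5). The Spearman rho with bulk had a median of 0.55 and 0.15. The 4 genes high in water summed to a median of 17.9 FPKM in proliferative rafts (0 to 4829) and 51.1 in nonproliferative rafts (0 to 14925). Limma called 3 of 4 lower in proliferative rafts, where 0.753% of all genes were called lower. These 4 genes were picked on this same table, so their calls only describe it. Epithelial markers summed to medians of 3423 (0 to 8033) and 870.2 (0 to 3020), with KRT7 and KRT8 called higher and CFTR under 1 FPKM throughout, and blood, endothelial and fibroblast markers had a median sum of 0 in both classes (highest 17.6 and 256). When only the 34 libraries with a rho of at least 0.25 were fitted, limma called 0 of 40 members, and 9 had an unadjusted p under 0.05. In that fit 29 differences were positive and the median was 0.63. With genes detected per library as a covariate 5 members were called and all 40 stayed positive. The count was 11 or 12 without any 1 of 6 libraries: untreated proliferative rafts 3 and 4, untreated nonproliferative rafts 5 and 6 and saline nonproliferative rafts 1 and 4. The share of all genes called in each of these refits is not given here. Their counts therefore do not show whether members stood apart from other genes.

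Some partner genes were called in the same averaged contrast, where 11.4% of all genes were called higher. Among 16 assembly factors and partners limma called 5 higher: the activator PSME4 (2.05), ADRM1 (3.66), the assembly factors PSMG3 (2.32) and PAAF1 (2.42), and AKIRIN2 (1.71), which carries proteasomes into the nucleus. Among 14 ubiquitin and delivery genes 4 were called higher, among them VCP at 3.67, the ubiquitin-conjugating enzyme UBE2D3 at 4.52 and the ubiquitin fusion gene RPS27A at 3.48.

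Within single arms limma called no member higher. Of all genes 0% were called higher in the untreated, saline and 5 nM arms and 0.0173% in the 2 nM arm. The median member difference was 2.45 untreated, 3.75 in saline, 3.49 at 2 nM and 1.27 at 5 nM. The unadjusted p was under 0.05 for 6, 17, 19 and 3 of 40 members. Of all 11560 genes it was under 0.05 for 741 higher and 67 lower untreated and for 950 and 322 in saline. At 2 nM these numbers were 1152 and 196, and at 5 nM 830 and 200. In saline and at 2 nM all 40 members were positive, in the untreated arm 37 and at 5 nM 36. The immunoproteasome genes had medians of 0.11, 1.63, 3.28 and 0.08 in the same order of arms. The proliferation difference at 5 nM minus that in saline had a median of -2.25 over the members, and limma called 0 of 40, with 0% of all genes called higher and 0% lower, and 0 members with an unadjusted p under 0.05. Of all genes 227 higher and 136 lower had such an unadjusted p.

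At 5 nM gemcitabine all 40 members tested had a lower mean log2 level in proliferative rafts than in saline, but no member passed the test. Leaving out proliferative raft 5 at 5 nM turned PSME1 to 0.33 and PSME2 to 0.015. The members' share of all FPKM was 2.08% to 3.27% in the 7 saline rafts fitted (median 3.12%) and 0% to 1.99% in the 7 rafts at 5 nM (median 1.61%), without overlap. With the 1 raft of each group that was left out for having under 1000 genes, at 0.118% in saline and 3.60% at 5 nM, the ranges overlapped. Limma called 0 of 40 members lower, and 0.0692% of all genes. The median member difference was -3.43 where that of all genes was -0.70, and 16 members had an unadjusted p under 0.05, 5 of them in the lid. Of all 11560 genes 1598 lower and 124 higher had such an unadjusted p. Genes detected were 4029 to 10099 in these saline rafts and 1200 to 10075 at 5 nM.

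The deubiquitinase gene PSMD14 had the smallest p. It was 267, 177, 453, 214, 133, 366 and 162 FPKM in saline and 5.23, 101, 0, 29.4, 0, 0 and 0 at 5 nM. Among these 7 fitted rafts of each group every saline raft was above every raft at 5 nM, while the saline raft left out of the fit was at 0. The limma difference was -5.83 ± 1.66 (adjusted p = 0.0911). The lid subunit PSMD11 was 243 to 536 in the fitted saline rafts, 0 in the one left out, and 0 to 195 in the fitted rafts at 5 nM, at -5.53 ± 1.75 (limma adjusted p = 0.118). The lid subunits PSMD13 at -4.51 ± 1.49 (0.135) and PSMD7 at -5.21 ± 1.78 (0.151) followed by limma. PSMB9 was 317, 208, 323, 199, 293, 173 and 106 in saline and 75.0, 143, 0, 29.1, 0, 0 and 0 at 5 nM, at -5.15 ± 1.86 (limma adjusted p = 0.183). At 5 nM the 3 rafts with values above 0 in these 3 genes had 7007, 10075 and 9109 genes detected, and the other 4 had 1200 to 3624. Without 1 of them, proliferative raft 2 at 5 nM, limma called 2 members lower, PSMD14 and PSMD11. PSME1 (-1.04 ± 2.15) and PSME2 (-1.41 ± 2.29) had limma adjusted p of 0.836 and 0.788, and PSMD6 was nearest to 0 at -0.60.

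The other dose comparisons gave 0 members called lower by limma, with 0% of all genes called lower. They share the saline rafts with the comparison above. The median member difference from saline was -1.07 at 2 nM in proliferative rafts, -1.37 at 2 nM in nonproliferative rafts and -1.47 at 5 nM in nonproliferative rafts, where the medians of all genes were -0.36, -0.66 and -0.84. The unadjusted p was under 0.05 for 1, 0 and 2 members. In the same order, 386, 560 and 1390 of all 11560 genes were lower at such an unadjusted p, and 54, 53 and 130 higher. The members' share of all FPKM went the other way in the fitted nonproliferative rafts, with wide overlap. Its median was 1.30% in saline (0.0442% to 2.28%), 2.08% at 2 nM (0.0259% to 3.08%) and 2.33% at 5 nM (0% to 5.08%). PSMD14 was 60.5, 168, 106, 386, 190.2, 189 and 0 FPKM in proliferative rafts at 2 nM, which overlaps saline.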

How the data were processed

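Per the labels' protocol the SMARTer kit gave the cDNA and Nextera XT the libraries. Per the submitters' processing notes, RSEM and the build hg19 were used by the authors. The deposited table holds FPKM values in 30504 rows and 120 columns, with column totals of 339644 to 817990 and no counts. Depth is therefore unknown. Groups and doses came from the labels. Members and gene lists were chosen with earlier results of these data known; the 4 water genes were picked on these libraries.

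For a repeated name the row with the highest mean was kept. A gene was detected at 1 FPKM. Differences between isolation groups are differences of mean log2(FPKM + 1) over genes that reach this level in 5 or more libraries of a comparison, with no test. Treatment arms were fitted with limma 3.58.1 in R 4.3.3 (limma-trend, 8 groups, two-sided, Benjamini-Hochberg adjustment over 11560 genes detected in at least 8 of 52 libraries, threshold 0.05). All fold changes are on log2(FPKM + 1) and understate changes of low genes. The averaged proliferation contrast was tried on normal values simulated for each gene on its own with the same spread. It recovered 2, 30, 47 and 50 of 50 genes shifted by a log2 of 1, 2, 4 and 6, with 2 false calls over 11560 genes. The fitted libraries run from full to nearly empty, so genes go missing together, which the simulation leaves out. Its counts therefore do not give the error rate in these data. Python 3.11.15 was used for tables (numpy 2.4.6, pandas 2.3.3, scipy 1.17.1) and plots (matplotlib 3.10.9).

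The text names PSMB5 to PSMB10, PSME1 to PSME3, PSMA8 and PSMB11 throughout, up to 5 members in each direction per comparison (by adjusted p, or by size where there is no test), the highest and lowest member of each role in bulk, and up to 4 genes of each other list. PSMA7, TAP1, the members in the sequence display and the libraries singled out were chosen after their values were seen. Of 65 genes on the other lists and markers 59 were used. Some results on the other lists are not reported here. Upstream sequence came from RefSeq on GRCh38.p14, where 37 of 42 members matched by symbol; transcript length and GC are medians over GENCODE release 29 coding transcripts. Alternatives were the pseudocount, the filter on low genes, which libraries enter, quantile and total scaling, genes detected as a covariate, summed rows, the title set and leaving out each library.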

Additional observations from a re-analysis of the deposited data

Results flagged for a closer look

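Of 93 group values 13 held a library far from the rest of its group by Dixon's range ratio. By chance the ratio flags about 1 in 20 groups of normal values. Some values here are counts near their maximum or lie mostly at 0, so their chance rate is unknown. In rafts with 1 cell, PSMB8 was listed at 0 in raft 3, where the other 9 rafts lay between 5.86 and 8.46 on log2(FPKM + 1), and PSMB9 at 0 in raft 7, where the others lay between 5.33 and 6.50. Raft 7 also had 38 members detected, where the others had 39 or 40, and 1 raft with 2 cells had 39 where the others had 40. PSMB7 was 3.04 in 1 C1 capture with 2 cells, where the others lay between 6.55 and 7.75.

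In the arms, saline proliferative raft 5 had 3 members detected and a member share of 0.118%, where the others had 36 to 40 members and 2.08% to 3.27%. Proliferative raft 8 at 2 nM had a share of 0%, where the others had 2.20% to 3.15%. Untreated proliferative raft 7 had a share of 7.22% with 1 member detected, where the others had 0% to 2.91%. Untreated nonproliferative raft 7 had immunoproteasome genes 3.38 below the constitutive ones (-3.38 on the log2 scale), where the others lay between 0 and 1.05.

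Among blanks, empty raft 8 had a member share of 5.34%, where the others had 0% to 2.03%, and empty C1 capture 5 had 2.84%, where the others had 0.141% to 0.771%. Empty raft 3 had a difference of 1.63 between immunoproteasome and constitutive genes, from PSMB10 at 28.6 FPKM, where the others were at 0.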

How the results depend on the processing

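No paired analysis was possible because the labels give no replicate number that arms or isolation methods share, and numbers here run in accession order. For proliferation averaged over arms (20 members called), limma called 11 with no filter on low genes, 9 with all 64 libraries, 0 with libraries whose rho with bulk was at least 0.25 and 5 with genes detected as a covariate, and 11 to 28 when single libraries were left out. The other planned settings gave 14 to 22. These counts are given without the share of all genes called in the same fit. With libraries of rho at least 0.25 the untreated arm gave 1 member, and with at least 3000 genes the 5 nM arm gave 1 higher and nonproliferative rafts at 5 nM against saline 1 lower. Proliferative rafts at 5 nM against saline gave 0 to 2 without single libraries. The median of C1 captures minus bulk was -0.87 over members past the low-value filter, -0.43 after rescaling to the same total, and -0.95 to -0.57 without single libraries. With libraries of rho at least 0.25 the averaged proliferation difference turned to -0.18 for PSMB10, -0.61 for PSMB6, -0.48 for PSMB8, -0.71 for PSMB9 and -0.22 for PSME2. At 5 nM against saline in proliferative rafts PSME1 turned to 0.46 with at least 3000 genes, 0.039 with the covariate and 0.33 without proliferative raft 5 at 5 nM (range -1.60 to 0.33 without single rafts at 5 nM), and PSME2 to 0.43, 0.0064 and 0.015 (range -1.92 to 0.015). The cause was not tested in any of these, beyond the fewer libraries some hold. With at least 3000 genes no untreated nonproliferative library was left, so the averaged and untreated contrasts could not be fitted. In the averaged proliferation contrast shifts of a log2 of 1, simulated for each gene on its own, were recovered in 2 of 50 genes. Single arms and dose contrasts were not simulated.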

Other observations

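Single members stood at high levels in single blank libraries. An empty raft had PSMD8 at 30509 FPKM, where rafts with 1 cell had 111 to 295. Water libraries held PSMB6 at 14504.5 FPKM in 1 library, PSMB7 at 4011 in another, PSMB9 at 2240 in another, and both PSMB4 at 2352 and PSME1 at 1842 in another. PSMC5 was at 949, 2548 and 10569 FPKM in 3 of 5 empty C1 captures, where captures with 1 cell had 109 to 727. Of 42 members 36 were at 0 in all 10 empty rafts, 23 in all 7 water libraries and 9 in all 5 empty C1 captures.

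PSMB9 and TAP1, neighbouring genes of the MHC region, differed in how far the methods overlapped. TAP1 was 3.93 to 154 FPKM in C1 captures with 1 cell and 0 to 116 in rafts with 1 cell, with wide overlap, where PSMB9 did not overlap. The TAP1 difference was 1.36 with the first set of raft libraries and -0.31 with the second.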
